A study of Homo sapiens with 6 samples.

Results

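The 34 genes described here make, sense and move cholesterol, and they were chosen by name from the 58735 genes of a count table from Huh7 cells. Huh7 is an established human hepatocellular carcinoma line. One group of 3 libraries carried a short hairpin RNA against ITGB5, the integrin beta 5 subunit (labelled shITGB5), and the other group of 3 libraries carried a control hairpin (labelled shcontrol). Both groups were grown in RPMI-1640 with fetal bovine serum, and the labels name no drug, time point or clone, nor the number of hairpin sequences behind a group. Whether each library had a culture of its own is not stated, and the p-values below therefore reflect only how far these 6 libraries vary, which may be technical variation. All 34 genes were abundant enough to be tested, among 16577 tested genes.

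Cells build cholesterol from acetyl-CoA through mevalonate, farnesyl diphosphate, squalene and lanosterol, and the liver is a main site of this synthesis. When sterols in the endoplasmic reticulum are low, the escort protein SCAP carries the transcription factor SREBP2 to the Golgi, where it is cut and released to switch on genes of synthesis and uptake. When sterols are plentiful, the INSIG proteins hold SCAP back, and oxysterols activate the nuclear receptors LXR-alpha and LXR-beta, which switch on genes of cholesterol export such as ABCA1 and ABCG1. SREBP2 binds sterol regulatory elements (SREs) next to sites for the factors NF-Y, which binds CCAAT boxes, and Sp1, which binds GC boxes.

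Promoter sequences are shown because 16 of 21 SREBP2 targets among the members, as listed here, rose, as described below. RefSeq (GRCh38.p14) gave a promoter for 29 of the 34 members and 18 of those 21 targets. The 250 bases before each RefSeq start were searched on both strands. The SRE-like word CACNCCAC was found in 4 of the 18 targets (22.2%) and in 6.57% of the 11143 tested genes with a promoter entry. The CCAAT box (CCAAT) was found in 16 of the 18 (88.9%, against 41.3%) and the GC box (GGGCGG) in 17 (94.4%, against 72.8%). The E-box word CANNTG, also searched, was found in 12 of the 18 (66.7%, against 61.4%). Of the 11 members with an entry that are not on the target list, 45.5% held a CCAAT box and 81.8% a GC box. The CCAAT box did not follow the calls. IDI1, NSDHL, HSD17B7, SC5D and STARD4, which did not pass the test, all held one. PMVK and CYP51A1, which held none, rose. Whether any of these words bears on the changes was not tested. The 4 stretches with the SRE-like word follow 5′ to 3′ on the strand of the gene, with the word or its reverse complement in capitals. They lie at chr22:41832953-41833000 (SREBF2, plus strand), chr7:155297650-155297697 (INSIG1, plus strand), chr10:1048974-1049021 (IDI1, minus strand) and chr11:121292764-121292811 (SC5D, plus strand). RefSeq starts can differ from those of the count table, where the IDI1 and SC5D stretches lie inside the genes.
SREBF2: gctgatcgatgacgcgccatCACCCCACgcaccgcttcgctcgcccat
INSIG1: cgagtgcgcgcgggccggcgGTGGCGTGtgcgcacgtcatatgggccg
IDI1: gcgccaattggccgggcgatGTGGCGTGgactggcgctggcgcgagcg
SC5D: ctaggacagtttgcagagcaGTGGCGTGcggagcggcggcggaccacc
Of these, SREBF2 and INSIG1 rose and IDI1 and SC5D did not pass the test. ABCA1 was the only other member with the word, 1 of 11 members with an entry that are not on the SREBP2 target list used here (9.09%).

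The gene with the largest rise, MVD, held no SRE-like word in this window but 3 CCAAT boxes and 1 GC box. Its 250 bases before the RefSeq start (chr16:88663092-88663341, minus strand) are shown with these boxes, on either strand, in capitals. In the count table MVD spans 88651935 to 88663161, so part of this stretch lies inside the gene there.
MVD: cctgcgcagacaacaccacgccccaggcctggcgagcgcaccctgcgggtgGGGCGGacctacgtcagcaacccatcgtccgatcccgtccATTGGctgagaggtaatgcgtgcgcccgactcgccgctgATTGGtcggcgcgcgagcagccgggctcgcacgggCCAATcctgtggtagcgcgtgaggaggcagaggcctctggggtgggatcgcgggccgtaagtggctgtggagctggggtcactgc
The motif bound by LXR with its partner RXR, named DR4, was searched with at most 1 mismatch. It was found in 3.12% of tested promoters, in none of the 18 SREBP2 targets with an entry, and in ABCA1, LBR and NPC2 among the members. The ABCA1 stretch (chr9:104928189-104928244, minus strand) has its match in capitals, on the opposite strand of the gene. Part of this stretch lies inside ABCA1 as positioned in the count table.
ABCA1: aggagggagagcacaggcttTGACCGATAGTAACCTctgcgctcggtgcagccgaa
A match describes letters only and is not a measured binding site.

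The hairpin libraries had less ITGB5 mRNA than the controls, with no overlap. ITGB5 (ENSG00000082781) lay at 205, 214 and 217 CPM in the controls and at 173, 181.0 and 174 CPM with the hairpin, where CPM is the usual count relative to the library total, after TMM scaling of the libraries. It was 16.8% lower (95% interval of the change -20.5% to -13.0%, edgeR adjusted p = 2.13e-09, exact permutation p = 0.1, the smallest that 3 libraries against 3 allow). Libraries held 15777922 to 18011313 counts. Mitochondrially encoded transcripts took 3.24% to 3.29% of the counts with the hairpin and 3.46% to 3.54% in the controls, and 9 of 13 of them fell. Of 9 hepatocyte and hepatoma markers, led by ALB, 7 rose and 2 did not pass, and their summed level was 6132 to 6298 CPM with the hairpin against 5409 to 5564 CPM. Summed markers of fibroblasts (328 to 337 against 294 to 307 CPM, led by LUM and COL1A2) and blood cells (42.3 to 44.2 against 38.7 to 40.3 CPM, mostly CD14) were also higher with the hairpin, while endothelial markers overlapped (5.96 to 7.80 against 6.31 to 8.29 CPM, with KDR at a count of 0 in all libraries). The part of these shifts in the results below was not tested.

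Of the 34 members, 20 rose, 1 fell and 13 did not pass the test (edgeR's quasi-likelihood test, Benjamini-Hochberg adjusted p under 0.05 over all tested genes). Across all 16577 genes 15.1% passed, 8.31% as rises and 6.74% as falls, and among the 10071 genes with a mean of at least 10 CPM 12.7% rose and 10.0% fell. The rises were small: the median log2 change was 0.18 for the members and 0 to within rounding for all genes, and the largest member change was 1.41-fold. In 22 members all hairpin libraries lay above all controls and in 1 they lay below, against 14.7% and 13.8% of all genes. In bulk RNA, a change in all cells and a change in the share of cells that express a gene cannot be told apart.

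**Figure D1:**
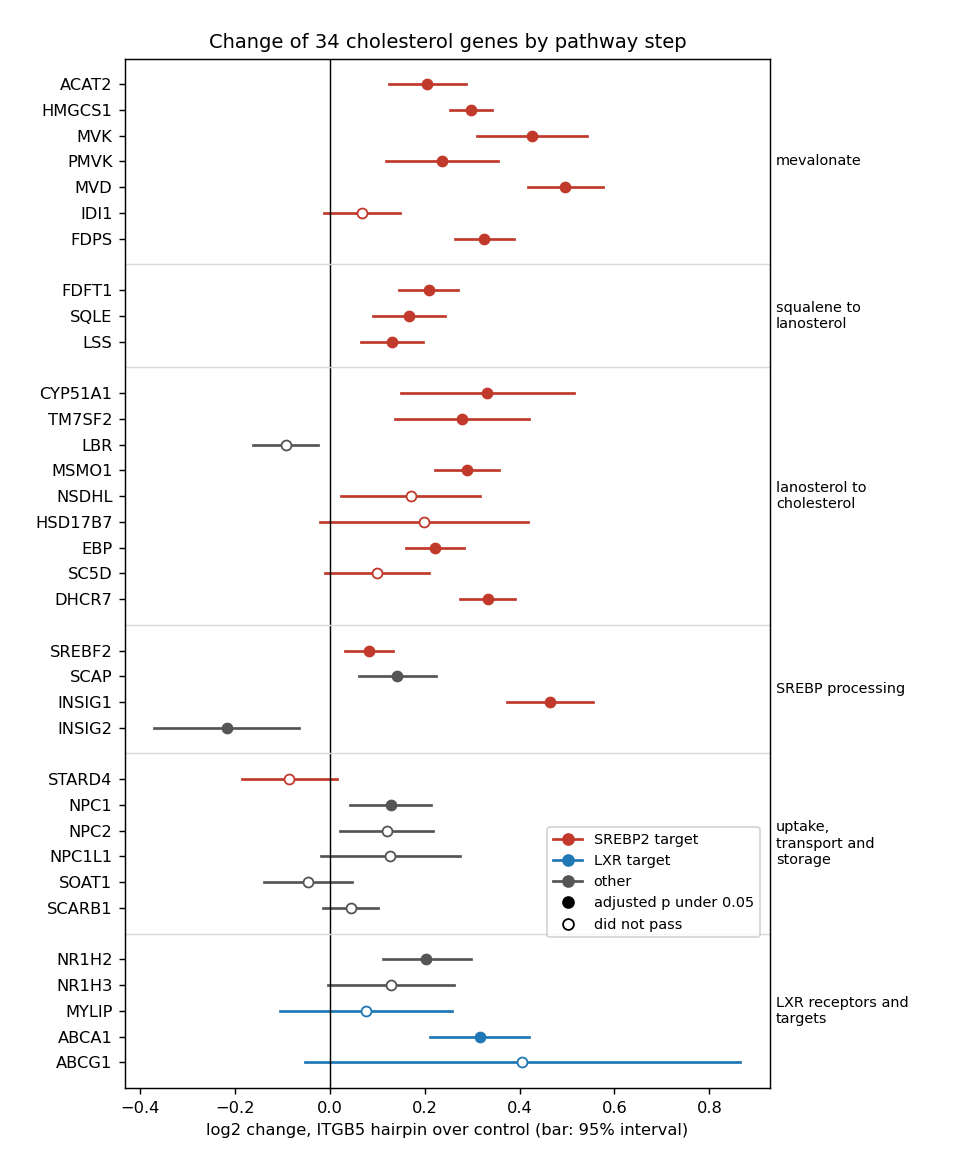
Log2 change of each of the 34 genes (x axis, hairpin over control, with its 95% interval) by pathway step (y axis), filled where the adjusted p was under 0.05. All 10 enzymes from ACAT2 to LSS lie to the right of 0, whereas LBR, INSIG2, STARD4 and SOAT1 lie to the left.

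Of the 19 enzymes of synthesis, 14 rose and 5 did not pass, with a median log2 change of 0.22. Summed over the 19, the level was 2726, 2706 and 2691 CPM in the controls and 3202, 3217 and 3219 CPM with the hairpin, 1.19 times the control mean. The groups were far apart on this sum compared with their SDs of 17.4 and 9.54 CPM (n = 3 each). Without HMGCS1, the most abundant member, the ratio was 1.17.

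Of the 7 enzymes of the mevalonate steps, 6 rose, by 15.4% to 41.1%, and 1 did not pass. ACAT2, which joins acetyl-CoA units, lay at 96.9, 93.9 and 90.8 CPM in the controls and 108.0, 106.1 and 110.9 CPM with the hairpin, a rise of 15.4%. HMGCS1, the HMG-CoA synthase of the cytosol (ENSG00000112972, chromosome 5, 43289395 to 43313512), lay at 703, 686 and 688 CPM in the controls. With the hairpin it lay at 854, 848 and 852 CPM, a rise of 23.0% (log2 change 0.30, SE 0.022, edgeR adjusted p = 8.97e-17). HMGCS1 thus rose by far more than its libraries differed within a group, where the SD was 9.72 and 2.88 CPM.

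MVK, the mevalonate kinase, rose by 34.4%, from 37.3, 38.9 and 41.0 CPM in the controls to 53.5, 51.3 and 52.4 CPM (log2 change 0.43, SE 0.058). PMVK, which adds the next phosphate, lay at 41.3, 45.4 and 42.5 CPM in the controls and 54.2, 48.0 and 49.8 CPM with the hairpin. Its rise of 17.8% was lost without shITGB5 replicate 1 (edgeR adjusted p = 0.0504) and with limma on log2(FPKM + 1) (0.0529). MVD, the decarboxylase that makes isopentenyl diphosphate (ENSG00000167508, chromosome 16, 88651935 to 88663161), changed most of all members. It went from 101.7, 91.3 and 99.8 CPM to 133.8, 140.9 and 138.4 CPM, a rise of 41.1% (95% interval 33.5% to 49.0%, edgeR adjusted p = 1.33e-15).

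IDI1, the isomerase that turns the product of MVD into dimethylallyl diphosphate, was the 1 enzyme of these steps that did not pass the test. It lay at 106.0, 102.3 and 100.2 CPM in the controls and 108.8, 104.5 and 110.2 CPM with the hairpin, so the groups overlapped. Its change lay within -0.77% to 10.8% (95% interval, edgeR adjusted p = 0.287). FDPS, the farnesyl diphosphate synthase that uses the products of both, rose by 25.4%, from 184, 186 and 193 CPM to 234, 233 and 239 CPM (log2 change 0.33, SE 0.031). Its 8 pseudogenes together held 0.588% as many counts as FDPS.

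All 3 enzymes from farnesyl diphosphate to lanosterol rose, by 9.50% to 15.6%. FDFT1, which makes squalene, lay at 204, 209 and 199 CPM in the controls and 241, 228 and 238 CPM with the hairpin (15.6% higher). SQLE, the squalene epoxidase, lay at 110.0, 112.3 and 106.1 CPM against 125.6, 121.8 and 121.5 CPM (12.3% higher). LSS, which closes the sterol rings, lay at 177, 170.0 and 174 CPM against 187, 197 and 187 CPM (9.50% higher, edgeR adjusted p = 0.00249). The libraries did not overlap for any of the 3, and the LSS call was lost with limma on log2(FPKM + 1) (adjusted p = 0.0660).

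From lanosterol to cholesterol, 5 of 9 enzymes rose, and the 4 others lay on both sides of 0. DHCR7, the reductase of the last step of one branch (ENSG00000172893, chromosome 11, 71428193 to 71452868), lay at 300.2, 306 and 308 CPM in the controls. With the hairpin it lay at 363, 402 and 387 CPM, a rise of 25.9% (log2 change 0.33, SE 0.029, edgeR adjusted p = 3.77e-14). The hairpin libraries of DHCR7 spread more than the controls (SD 19.7 against 4.01 CPM) but stayed above them.

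MSMO1, which starts removal of the methyl groups at C4, rose by 22.2%, from 163, 153 and 156 CPM to 198, 185 and 192 CPM. EBP, the isomerase of the sterol double bond, rose by 16.7%, from 201.0, 202 and 199 CPM to 233, 240.3 and 229 CPM. CYP51A1, the lanosterol demethylase, lay at 17.0, 17.5 and 14.8 CPM in the controls and 19.2, 20.7 and 22.3 CPM with the hairpin. Its rise of 25.9% had a wide interval (11.0% to 42.8%) and was lost without shcontrol replicate 3 or shITGB5 replicate 3 (adjusted p in edgeR 0.0772 and 0.0728) and in limma (0.0666).

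NSDHL and HSD17B7, which follow MSMO1, and SC5D, the C5 desaturase, did not pass. NSDHL lay at 28.9, 27.4 and 27.2 CPM in the controls and 29.1, 33.5 and 31.5 CPM with the hairpin, without overlap (edgeR adjusted p = 0.111). HSD17B7 lay at 11.0, 12.9 and 11.3 CPM against 14.98, 12.8 and 12.6 CPM (adjusted p = 0.258), and SC5D at 53.4, 51.6 and 49.5 CPM against 58.2, 55.2 and 52.1 CPM (adjusted p = 0.255). The hairpin libraries overlapped the controls for both. HSD17B7 has 2 pseudogenes that together hold 12.4% as many counts, so its value is less certain. The 95% intervals of their changes reach 24.5% for NSDHL, 33.5% for HSD17B7 and 15.6% for SC5D, so a rise as large as the median of the enzymes is within each interval for NSDHL and HSD17B7 and not shown to be absent.

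The C14 sterol reductase step is served by both TM7SF2 and LBR, of which TM7SF2 rose and LBR did not pass. TM7SF2 rose by 21.3%, from 26.6, 28.4 and 29.6 CPM to 33.7, 35.7 and 33.2 CPM (log2 change 0.28, SE 0.070). LBR, which also anchors chromatin to the nuclear lamina, lay at 164, 174 and 163 CPM in the controls and 154, 154 and 161 CPM with the hairpin. All hairpin libraries of LBR lay below all controls, but its log2 change of -0.09 did not pass (edgeR adjusted p = 0.0576). It passed with library totals in place of TMM (0.0465) and without shcontrol replicate 3 or shITGB5 replicate 3 (0.0453 each).

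**Figure D2:**
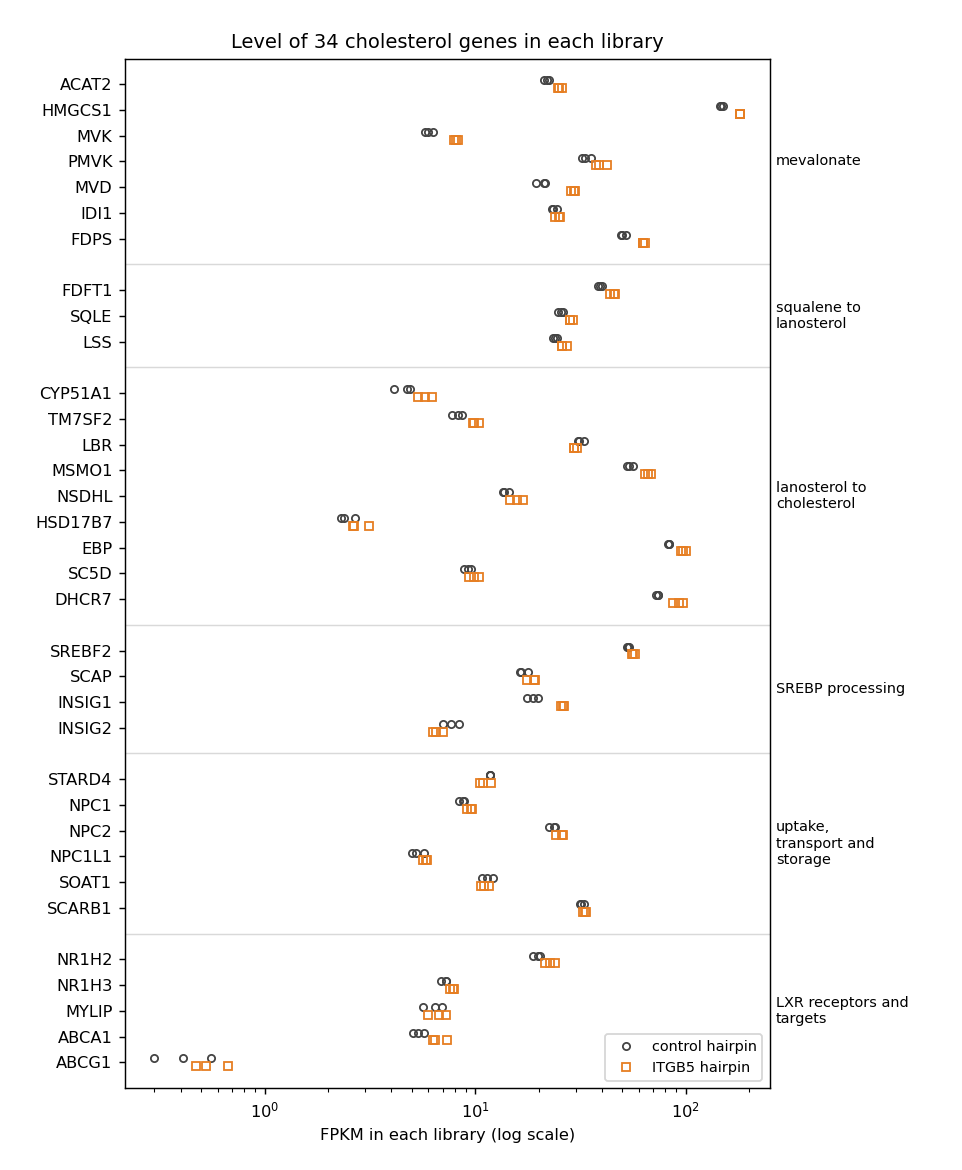
Level of each gene in each library as FPKM (CPM per kilobase of gene length, log axis), with circles for the control hairpin and squares for the ITGB5 hairpin. HMGCS1 is highest and ABCG1 lowest, and the shift between groups is small beside the spread between genes.

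Per length, the members spanned a wide range of levels. HMGCS1 had the highest control mean at 147 FPKM, followed by EBP at 83.3, DHCR7 at 73.3, MSMO1 at 54.3 and SREBF2 at 53.1 FPKM. ABCG1 was lowest at 0.422 FPKM, below HSD17B7 at 2.46 and CYP51A1 at 4.59 FPKM. Most exon bases of CYP51A1 are shared with another annotated gene, as given below, so its level is less certain. Within the mevalonate steps MVK was the scarcest mRNA at 6.03 FPKM, although it had the second largest rise there. HMGCS1, at the other end of the range of those steps, rose by 23.0%, and MVK by 34.4%.

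Among the genes that control SREBP2, INSIG1 rose and INSIG2 fell, the latter by a call that 4 of 14 alternatives kept. INSIG1, itself a target of SREBP2 that feeds back on SCAP (ENSG00000186480, chromosome 7, 155297776 to 155310235), lay at 68.9, 72.3 and 64.6 CPM in the controls. With the hairpin it lay at 92.9, 96.0 and 95.1 CPM, a rise of 37.9% (95% interval 29.6% to 46.9%, edgeR adjusted p = 2.18e-12). INSIG2, which holds SCAP in the same way but is not driven by SREBP2, lay at 27.7, 33.3 and 30.3 CPM against 27.8, 25.8 and 24.9 CPM. The groups overlapped for INSIG2, and it was the only member that fell, by 13.9% (adjusted p = 0.0425). That call was lost in DESeq2 (0.0576), in limma (0.159), with no filter on low counts (0.0732) and without shcontrol replicate 2, shcontrol replicate 3, shITGB5 replicate 2 or shITGB5 replicate 3 (0.297, 0.0866, 0.0997 and 0.188).

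SREBF2, which encodes SREBP2, and SCAP rose slightly. SREBF2 lay at 397, 406 and 399.9 CPM in the controls and 419.5, 431.5 and 423 CPM with the hairpin, a rise of 5.91% (edgeR adjusted p = 0.0176). It lost the call when shcontrol replicate 1, shcontrol replicate 3 or else shITGB5 replicate 2 was left out (0.0995, 0.0624 and 0.0708) and in limma (0.0792). SCAP lay at 104.5, 106.2 and 114.3 CPM against 123.3, 122.5 and 112.9 CPM, with overlap and a rise of 10.5% (adjusted p = 0.00838). It lost the call when shcontrol replicate 1, shcontrol replicate 2 or else shITGB5 replicate 1 was left out (0.0892, 0.0537 and 0.0766) and in limma (0.173). The 95% intervals of SREBF2 and SCAP end at 9.73% and 16.8%, below that of INSIG1.

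Of 6 genes of uptake, transport and storage, 1 rose and 5 did not pass (median log2 change 0.08). NPC1, which exports cholesterol from lysosomes, lay at 88.4, 84.5 and 89.7 CPM in the controls and 96.9, 98.1 and 92.2 CPM with the hairpin (9.36% higher, edgeR adjusted p = 0.0276). The NPC1 call was lost when shcontrol replicate 1, shcontrol replicate 2, shITGB5 replicate 1 or else shITGB5 replicate 2 was left out (0.0591, 0.181, 0.103 and 0.110) and in limma (0.150). NPC2, its soluble partner, lay at 65.0, 65.7 and 61.6 CPM against 70.9, 71.5 and 66.6 CPM, without overlap (adjusted p = 0.0932). NPC1L1, the sterol importer of the cell surface, lay at 26.2, 27.4 and 30.1 CPM against 31.1, 30.7 and 29.5 CPM (adjusted p = 0.277). For NPC1L1 the groups overlapped through shcontrol replicate 3.

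STARD4, a sterol carrier of the cytosol that SREBP2 is known to drive, was the only 1 of the 21 SREBP2 targets with a change below 0. It lay at 67.0, 66.9 and 67.0 CPM in the controls and 61.6, 59.8 and 67.9 CPM with the hairpin (log2 change -0.08, edgeR adjusted p = 0.298). Its 95% interval of -12.05% to 1.09% lay below the change of every member that rose. SOAT1, which esterifies cholesterol for storage, lay at 80.1, 84.8 and 75.6 CPM against 77.4, 74.3 and 81.3 CPM (adjusted p = 0.611). SCARB1, the HDL receptor, lay at 254, 245 and 247 CPM against 252, 261 and 257 CPM (adjusted p = 0.361). Both overlapped between the groups.

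Of 3 LXR targets, ABCA1 rose, and neither of the other two passed or had a change below 0. ABCA1, which exports cholesterol to apolipoprotein A-I (ENSG00000165029, chromosome 9, 104781002 to 104928237), lay at 57.7, 65.1 and 60.8 CPM in the controls. With the hairpin it lay at 73.5, 71.3 and 83.7 CPM, without overlap, a rise of 24.5% (95% interval 15.8% to 33.9%, edgeR adjusted p = 4.77e-06). In limma on log2(FPKM + 1) the ABCA1 call was lost (adjusted p = 0.0618). ABCG1, which exports cholesterol to HDL, had only 32 to 68 counts a library. It lay at 1.83, 2.50 and 3.42 CPM against 2.90, 4.11 and 3.24 CPM, and its 95% interval of -3.55% to 82.1% leaves its change undetermined at this depth. MYLIP, the ligase that degrades lipoprotein receptors, lay at 19.5, 17.1 and 21.0 CPM against 22.1, 20.4 and 18.2 CPM (adjusted p = 0.666).

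Of the receptors themselves, NR1H2 (LXR-beta) rose and NR1H3 (LXR-alpha) did not pass. NR1H2 lay at 76.6, 70.4 and 74.4 CPM in the controls and 80.7, 90.0 and 84.7 CPM with the hairpin, a rise of 15.2% (edgeR adjusted p = 0.000813, but 0.0633 in limma). NR1H3 lay at 33.0, 31.1 and 32.8 CPM against 34.5, 35.9 and 35.5 CPM, without overlap (adjusted p = 0.218). The change of NR1H2 lies inside the 95% interval of NR1H3, -0.31% to 19.9%.

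Set side by side, 16 of 21 SREBP2 targets rose and 5 did not pass (median log2 change 0.22, range -0.08 to 0.50), and 1 of 3 LXR targets rose (median 0.32, range 0.08 to 0.41). At an unadjusted p under 0.05, no SREBP2 target and no LXR target fell in edgeR, DESeq2 or limma with all 6 libraries, and 1 SREBP2 target fell in edgeR without shITGB5 replicate 3. The 13 members not on the SREBP2 target list used here split into 4 that rose, 1 that fell and 8 that did not pass (median 0.13). The list was set by prior knowledge of the genes, but with earlier results of these data known. Some of these 13, such as NPC1 and NPC1L1, could be placed otherwise. No test of the difference between the lists was made, and the LXR median rests on 3 genes, 1 of them at very low counts.

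**Figure D3:**
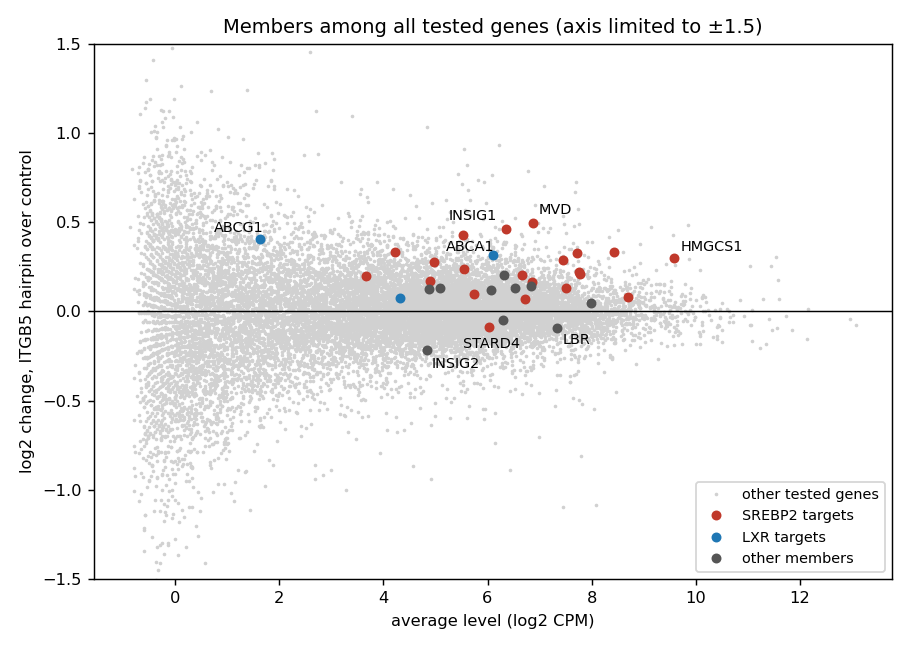
Log2 change (y axis) against average level (x axis, log2 CPM) for all tested genes in grey, with SREBP2 targets in red, LXR targets in blue and the remaining members in dark grey. 20 of the 21 SREBP2 targets lie above 0, and 20 genes, none of them members, fall outside the y axis.

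Ratios of 5 pairs of members with linked roles, chosen after their values were seen, were taken within each library, which removes any scaling of the libraries. INSIG1 per INSIG2, both per length, was 2.69, 2.35 and 2.30 in the controls and 3.62, 4.03 and 4.13 with the hairpin, 1.60 times higher. TM7SF2 per LBR was 0.250, 0.252 and 0.281 against 0.337, 0.357 and 0.318, 1.29 times higher. MVD per IDI1 was 0.883, 0.822 and 0.918 against 1.13, 1.24 and 1.16, 1.35 times higher. Which of these 2 genes is higher depends on the gene lengths used, whereas the change of the ratio does not. ABCA1, which exports cholesterol, per SOAT1, which stores it, was 0.445, 0.474 and 0.497 against 0.586, 0.592 and 0.635. NR1H2 per NR1H3 moved least, from 2.80, 2.74 and 2.74 to 2.83, 3.02 and 2.88. The groups did not overlap for any of the 5 ratios. Each gave an exact two-sided permutation p of 0.1, the smallest possible with 3 against 3, and 0.1 after Benjamini-Hochberg adjustment over the 5.

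**Figure D4:**
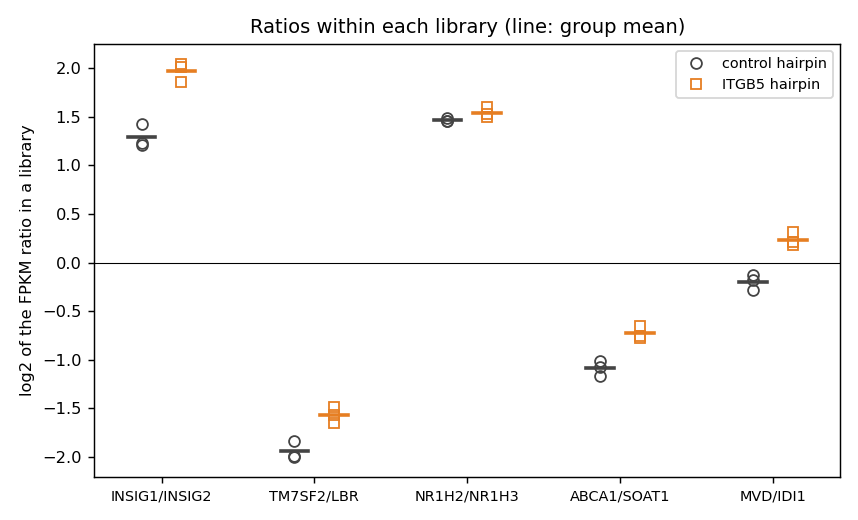
Log2 of the FPKM ratio of 2 genes in each library (y axis) for 5 pairs (x axis), with circles for the control hairpin, squares for the ITGB5 hairpin and a line at each group mean. INSIG1 over INSIG2 shows the widest gap and NR1H2 over NR1H3 the narrowest.

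Genes of neighbouring pathways were listed separately from the members. Beside them, 8.31% of all tested genes rose and 6.74% fell, or 12.7% and 10.0% at a mean of at least 10 CPM. A single call in a short list is near these shares and is not read as a result of that list. Of 14 genes of the isoprenoid branch, which uses farnesyl diphosphate for lipid anchors and ubiquinone, 1 rose and 13 did not pass (median log2 change 0.06). The 1 was ICMT, the methyltransferase of prenylated proteins (157 ± 7.37 to 195 ± 6.43 CPM, mean ± SD, n = 3, log2 change 0.31). Of 12 genes that process SREBP or sense sterols, 2 rose, 1 fell and 9 did not pass. ERLIN2 and ERLIN1, which bind sterol-regulated proteins for degradation, rose (0.39 and 0.28), and MARCH6, a ubiquitin ligase that acts on SQLE, fell (-0.18) and is named outside the rule for named genes. Of 10 tested genes of sterol transfer and esters, GRAMD1A, which moves cholesterol from the plasma membrane, fell (-0.15) and 9 did not pass. Of 6 tested further LXR targets, LPCAT3 rose (0.22, edgeR adjusted p = 0.0412) and 5 did not pass. Of 14 genes of fatty acid synthesis, most of them driven by SREBP1, 9 rose and 5 did not pass (median 0.18), with GPAM (0.69) and PNPLA3 (0.43) the largest.

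Reads of overlapping genes cannot be told apart without the strand setting of the counting, so partners were listed. Of the members, 7 share exon bases with a gene that has more than 10% as many counts. TCP1, opposite ACAT2, holds 402% as many counts and fell (log2 change -0.10) while ACAT2 rose. MMAB, opposite MVK, holds 80.9% as many counts and did not pass (0.05). VPS51 shares 16 exon bases with TM7SF2 on the same strand, holds 179% as many counts and did not pass (-0.03). ACP2 overlaps NR1H3, RMC1 overlaps NPC1, ISCA2 overlaps NPC2 and STARD4-AS1 overlaps STARD4, and none of these 4 partners passed. The 17 SREBP2 targets without such a partner had the same median of 0.22, with 13 that rose. They include CYP51A1, which shares 79.4% of its exon bases on the same strand with AC000120.2. That gene held 0% as many counts. How reads in the shared bases were counted is not known, so the level of CYP51A1 may be too low.

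Earlier results of these libraries reported words of 7 bases in 3′ untranslated regions (3′ UTRs) as common among genes that rose (TCGGAGA and also CGGAGAA) or fell (AGACCAA and also GACCAAA). That earlier finding was not tested again here. Words of the first kind stood in the 3′ UTR of 2 members (5.88%, against 3.34% of 13380 tested genes) and of the second kind in 4 (11.8%, against 15.7%). The 2 members with the first kind, MVK and TM7SF2, both rose. The words came from the directions of genes in these same libraries, so the direction of a member that holds one is not separate evidence. The sites in MVK and TM7SF2 are shown with the word in capitals, at bases 373 and 181 of the 3′ UTR.
MVK: cctggttccCGGAGAAgtgtgcctt
TM7SF2: tgaccaaaaTCGGAGAtgctcttcc
Words of the second kind stood in ACAT2 and TM7SF2, which rose, and in IDI1 and NSDHL, which did not pass. Of the 16 SREBP2 targets with none of the 4 words, 13 rose, with a median log2 change of 0.23.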

How the data were processed

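RNA-seq of total RNA from Huh7 cells was used, with libraries from a kit that keeps strand, per the labels' protocols. The authors deposited 1 table of whole-number counts per gene, although it is named for FPKM: 100% of values were whole, and the libraries had 15777922 to 18011313 counts. At a count of 0 these depths allow up to 0.167 to 0.190 CPM (3 counts, counting error only). For the aligner, the counter and its strand option, nothing is given in the sources used here. Columns coded S and NC were read as the ITGB5 hairpin and the control. All 58735 gene positions equal GENCODE release 29 (GRCh38). Genes kept by filterByExpr were scaled by TMM and tested across all genes with edgeR 4.0.16 (R 4.3.3, quasi-likelihood, two-sided, no covariate, Benjamini-Hochberg threshold 0.05). SEs are the log2 change over the root of F. FPKM used the gene lengths of the table. Alternatives used DESeq2 1.42.0, limma 3.58.1 on log2(FPKM + 1) or log2(FPKM + 0.1) for genes with a mean of at least 0.5 FPKM in a group, other scalings and filters, a fold minimum, the replicate block and each library left out. The edgeR step was tested on simulated data. All members are named, with the 2 largest passing genes of each neighbouring list. Members and lists were chosen with earlier results of these data known.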

Additional observations from a re-analysis of the deposited data

How the results depend on the processing

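The call of 21 members (20 rose, 1 fell) became 12 with limma on log2(FPKM + 1), 13 with limma on log2(FPKM + 0.1) and 9 against a fold of 1.1, all of them rises, while the calls over all genes went from 2495 to 1277, 1276 and 646. The last follows from the stricter hypothesis, and for limma the cause was not tested. The 9 were HMGCS1, MVK, MVD, FDPS, MSMO1, EBP, DHCR7, INSIG1 and ABCA1. Of 16 SREBP2 targets, 8 passed against a fold of 1.1. The 1 LXR target became 0 in both limma fits, where 1 had an unadjusted p under 0.05 and DESeq2 called 1. RLE factors, library totals, no filter on low counts and DESeq2 gave 20 to 22 members. Leaving out 1 library gave 18 to 20 members, 14 to 16 SREBP2 targets and 1 LXR target, and an ITGB5 log2 change of -0.292 to -0.25. The log2 change of MYLIP, which passed no test, spanned -0.003 to 0.15 over these omissions, with the negative value without shcontrol replicate 2. The median of the LXR targets fell from 0.32 to 0.13 with limma on log2(FPKM + 1) and to 0.20 without shcontrol replicate 1. That of the SREBP2 targets went from 0.22 to 0.27 without shcontrol replicate 2 and to 0.24 without shITGB5 replicate 3. No member with a call changed direction in any of the 14 alternatives. Deviations of libraries with the same number were nearly uncorrelated (0.028, -0.000125 and -0.0174), so the numbers were not used as pairs. With the replicate number as a block, 20 members, 16 SREBP2 targets and 1 LXR target passed, and INSIG2 was lost (-0.214, edgeR adjusted p = 0.0537). The alternatives for ITGB5, for list medians, for the 5 pair ratios and without overlapping genes or words were chosen after seeing the data. With 3 libraries a group, changes of low-count members such as ABCG1 and HSD17B7 were not resolved.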
